A study of Solanum tuberosum with 9 samples.

Results

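Starch and sucrose are the main products of photosynthesis in a leaf. The genes described here encode the enzymes that build and break down both, and the transporters that carry sugar out of the cell. They were picked by product name, as every gene whose name contains starch, sucrose, amylase, isoamylase, invertase, beta-fructofuranosidase, SWEET, glucose-1-phosphate adenylyltransferase or 1,4-glucan, together with AGPS1 and AMYA1, and with inhibitors and kinases left out. This gave 85 of the 24169 genes listed in the deposited tables, of which 82 were listed for both comparisons with A’, 2 for A’ vs. B’ alone and 1 for A’ vs. F’ alone. The names also brought in 3 subunits of a regulatory kinase (sucrose nonfermenting 4-like), 6 galactinol-sucrose galactosyltransferases of raffinose synthesis and 4 UDP-forming 1,4-glucan-protein synthases, which work on cell wall precursors. Starch-branching enzymes carry a name of another form and were not reached.

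Leaves of the diploid potato population 15-1, progeny of a Solanum hybrid and the wild species S. chacoense, were collected at full anthesis from untreated greenhouse plants. The 3 bulk samples all came from individuals with a high glycoalkaloid content and differed in what their aqueous leaf extracts did to mustard seedlings: high phytotoxicity in A’, low phytotoxicity in B’ and growth stimulation (hormesis) in F’. Each bulk joined 3 individuals and was sequenced as 3 libraries, and since the sources used here do not say how the 3 libraries of a bulk arose, the spread between them, and every FDR below, may be technical. The groups thus differ in plants and genotype, and no treatment was given.

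During the day, ADP-glucose pyrophosphorylase and the starch synthases lay down starch in the chloroplast, and at night glucan phosphorylation, beta-amylases, alpha-amylase and isoamylases take it apart to maltose and glucose. Sucrose is made in the cytosol by sucrose-phosphate synthase, is released beside the phloem through SWEET transporters and loaded into it by sucrose/proton symporters. Invertases and sucrose synthase split sucrose where it is used. Potato exports sucrose mainly through the cell wall space, and cell wall invertase acts in that space.

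Libraries held 21199110 to 22517178 reads on genes. Values below are normalized counts, that is, reads brought to 1 common effective library size for all 9, in the order of libraries 1, 2 and 3. They were not corrected for transcript length, so levels are compared between groups and never between genes. Log2FC gives B’ or F’ relative to A’, or F’ relative to B’, with its standard error (SE), and a gene was called at an FDR under 0.05 in edgeR’s quasi-likelihood test over all genes that passed the filter on low counts. Both comparisons with A’ use the same 3 A’ libraries, so their values stand side by side and are not independent of each other. Markers of leaf mesophyll were present in every library, but their summed level ranged from 128756 to 165893 CPM (reads per 1000000 reads on genes) in A’, from 71682 to 85742 in B’ and from 95500.3 to 115125 in F’, and 35 and 32 of the 39 were called lower in B’ and in F’. Summed markers of tuber storage, patatin-like proteins, were 136 to 159.6 CPM in A’, 158 to 238 in B’ and 108 to 135 in F’. Of the 10 tested, 2 were called higher and 1 lower in B’ and 4 lower in F’, and patatin-like protein 3 LOC102589148 rose in B’ from a mean of 105 to 779 normalized counts (Log2FC 2.89, edgeR FDR 1.33e-06). The 4 lower in F’ numbered 2 without A’ library 1 or 2, and the 1 lower in B’ became 2 without A’ library 3 or B’ library 1 or 2 and 3 without B’ library 3. Summed markers of anther and pollen stayed between 173 and 213 CPM, and of the 12 tested 2 were called higher and 3 lower in B’ and 3 higher and 5 lower in F’. Summed phloem markers were 179.5 to 196 CPM in A’, 193 to 212 in B’ and 131 to 144 in F’, with 4 of the 13 tested called higher and 0 lower in B’ (1 lower without B’ library 1), and 0 of the 11 tested higher and 7 lower in F’ (1 higher without A’ library 2 or F’ library 2). In bulk tissue fewer cells of a type and less RNA per cell cannot be told apart, and the part of these shifts in the results below was not tested.

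In the A’ vs. B’ comparison group, 75 of the 85 members passed the filter, and 13 were called higher and 22 lower in B’. That is 46.7% of those tested, where 32.9% of all 19059 genes tested were called (16.4% higher and 16.5% lower). The members’ median Log2FC was −0.22, beside 0.02 for all genes tested, and 14 (18.7%) were called with a change of at least 1 on the log2 scale, where 12.3% of all genes were. In the A’ vs. F’ comparison group, 74 passed, 11 were higher and 20 lower in F’, which is 41.9% against 35.6% of all genes (17.5% higher and 18.2% lower), with a median of −0.21 beside 0.02 and 13 members (17.6%) past a change of 1, where 12.9% of all genes were. In B’ vs. F’, 73 passed, 9 were higher and 16 lower in F’, which is 34.2% against 30.0% (13.7% higher and 16.3% lower), with a median of 0.01 beside −0.00 and 8 members (11.0%) past a change of 1, where 12.9% of all genes were. The 9 members higher in F’ than in B’ became 14 in a joint fit of all 9 libraries. The 3 libraries of one group lay wholly above or below those of the other for 48 members in A’ vs. B’ (64.0%, where 47.5% of all genes did so), for 38 in A’ vs. F’ (51.4% against 47.6%) and for 35 in B’ vs. F’ (47.9% against 44.3%). Without A’ library 2 or A’ library 3 the members lower in B’ numbered 12, and without B’ library 2 they numbered 13. Without A’ library 3 the members higher in F’ numbered 6. Over the 3 comparisons, 48 of the 85 members were called at least once. The share of all genes called at least once was not counted, so this number stands without a comparison. The 10 members tested in neither comparison with A’ never exceeded 15 reads in a library.

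**Figure D1:**
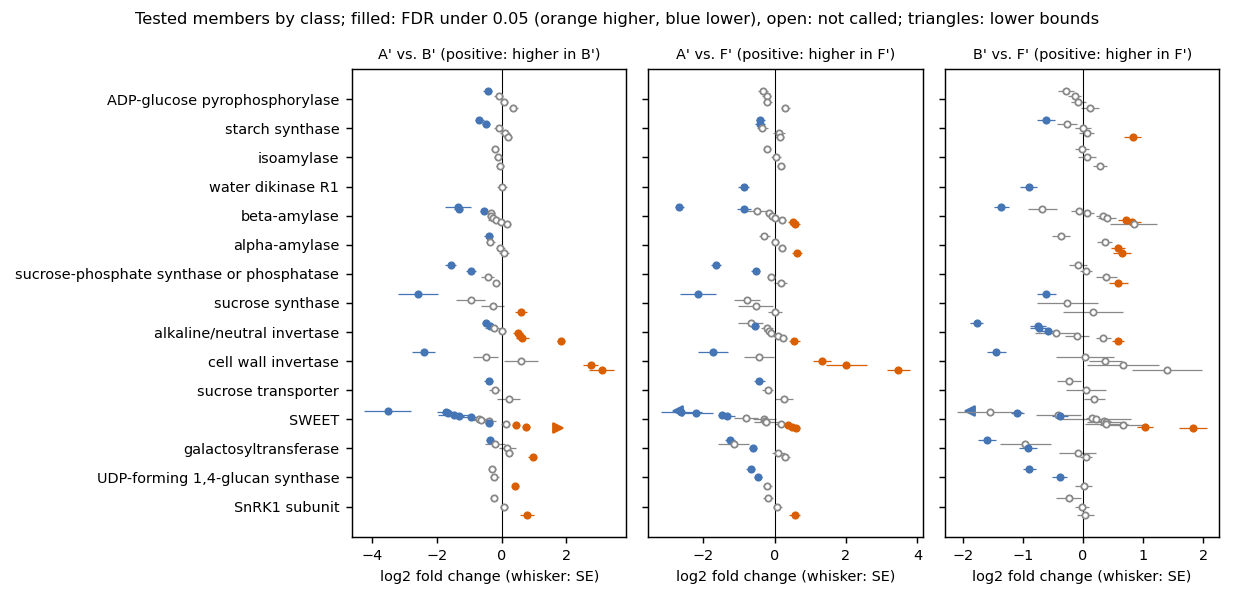
Log2FC (horizontal axis, log2 scale, whiskers SE) of every tested member by class (vertical axis), with 1 panel for each pair of groups. Filled points passed an FDR of 0.05, orange for higher and blue for lower, open points did not, and triangles are lower bounds for SWEET genes at the detection floor in 1 group. The widest spread is seen among SWEETs and cell wall invertases, while ADP-glucose pyrophosphorylase, isoamylase and sucrose transporters stay close to 0. The lowest SWEET point, LOC102584588 in B’, rests on at most 19.6 normalized counts in a library.

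At the first step of starch synthesis, 1 of the 4 genes tested was called in B’ and 0 in F’. That is 25.0% and 0%, beside 32.9% and 35.6% of all genes. The small subunit of ADP-glucose pyrophosphorylase, LOC102577790, which forms the ADP-glucose used by starch synthases, had 9682, 11338 and 12633 normalized counts in A’, 11135, 10420.1 and 9661 in B’ and 9509, 9838 and 9107 in F’. The groups overlapped, and it was not called in either comparison (Log2FC −0.10 with SE 0.131 and −0.23 with SE 0.128). Of its large subunits only subunit 3 (LOC102582750) was called, lower in B’ (3954, 4555 and 4486 in A’ against 3017, 2863 and 3682; Log2FC −0.44, edgeR FDR 0.0241), and that call was lost without A’ library 2 or 3 or B’ library 1 or 2, with an edgeR FDR of up to 0.11. The product name of AGPS1 in the files is large subunit 1-like, in spite of the S of its symbol, and it was not called (Log2FC 0.06 and −0.21).

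GBSS, the granule-bound starch synthase that makes amylose, was lower in B’ alone. It had 14327, 15917 and 14607 normalized counts in A’, 10254, 9715 and 7532 in B’ and 15952, 18058 and 15035 in F’. All B’ libraries lay below all others, by a Log2FC of −0.70 (SE 0.137, edgeR FDR 0.00228) against A’, while F’ and A’ overlapped (0.14, SE 0.122) and F’ was above B’ (0.83, SE 0.141, edgeR FDR 0.00162). Granule-bound starch synthase 2 (LOC102583115) was called lower in both B’ and F’ (Log2FC −0.49 and −0.41, edgeR FDR 0.0133 and 0.0213). The call in B’ was lost without A’ library 2 or 3 (edgeR FDR up to 0.0737) and that in F’ without either of these or without F’ library 1 or 3 (up to 0.0999). Soluble starch synthase 4 (LOC102579881), linked in Arabidopsis to the start of new granules, was called lower in F’ alone of the comparisons with A’ (Log2FC −0.41, edgeR FDR 0.0404), a call that held only on leaving out F’ library 2 and reached an edgeR FDR of 0.167 without F’ library 1. Soluble starch synthases 1 and 3 were not called in any comparison, and starch synthase V (LOC102577506) was too low to be tested. None of the 3 isoamylases was called in any comparison, and isoamylase 3 (LOC102577824), which in Arabidopsis removes branches during breakdown, ranged from 1400.5 to 1656 in A’, from 1285 to 1495 in B’ and from 1628 to 1847 in F’.

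Starch breakdown held the member with the smallest FDR in A’ vs. F’. Beta-amylase PCT-BMYI (LOC102577806, contig NW_006239198.1, bases 640019 to 643003, plus strand), one of the enzymes that release maltose from glucan ends, had 3401, 4152 and 3452 normalized counts in A’, 1564, 1545 and 1245 in B’ and 559, 599 and 548 in F’. The 3 groups were fully apart, with B’ between the others. B’ was 2.51-fold below A’ (Log2FC −1.33, SE 0.136, edgeR FDR 2.36e-05), F’ was 6.40-fold below A’ (−2.68, SE 0.128, edgeR FDR 3.43e-09), and F’ was 2.57-fold below B’ (−1.36, SE 0.124, edgeR FDR 2.92e-05).

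Beta-amylase 1 (LOC102584887), a chloroplast enzyme in Arabidopsis that is regulated by thioredoxin, did not follow that order. It had 6090.3, 6739 and 5842 normalized counts in A’, 5267, 5201 and 4286 in B’ and 8159.6, 10174 and 7869 in F’. F’ was the highest group, above A’ by a Log2FC of 0.50 (edgeR FDR 0.00852) and above B’ by 0.82 (SE 0.138, edgeR FDR 0.00145). B’ lay below A’ without overlap, yet the difference missed the threshold (−0.33, edgeR FDR 0.0611; DESeq2 FDR 0.0416). The call in A’ vs. F’ was lost without A’ library 3 (edgeR FDR 0.0588). Among the other beta-amylases, inactive beta-amylase 9 (LOC102590483) was higher in F’ (Log2FC 0.57, edgeR FDR 0.00505) and beta-amylase 3 (LOC102594291), a chloroplast maltose-forming enzyme in Arabidopsis, was lower in F’ (−0.86, edgeR FDR 0.00307). In all, 3 of 9 beta-amylases were lower and none higher in B’ (33.3% called, beside 32.9% of all genes), and 2 were lower and 2 higher in F’ (44.4%, beside 35.6%).

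R1, the glucan, water dikinase that phosphorylates starch and so opens the granule surface to breakdown, was lower in F’ alone. It had 3978, 5941 and 5518 normalized counts in A’, 6091, 4774 and 4623 in B’ and 3122, 2734 and 2512 in F’, and no F’ library reached the lowest library of A’ or B’. F’ was 1.83-fold below A’ (Log2FC −0.87, SE 0.154, edgeR FDR 0.000557) and 1.86-fold below B’ (−0.90, SE 0.141, edgeR FDR 0.000979), while B’ and A’ overlapped (0.01, SE 0.166). Alpha-amylase 3 (LOC102599630), the chloroplast alpha-amylase, was not called in any of the 3 comparisons (Log2FC 0.07, −0.29 and −0.37). It was called lower in F’ than in B’ without B’ library 3 (−0.49, edgeR FDR 0.0199), and lower in F’ than in A’ without A’ library 1 (−0.41, edgeR FDR 0.031). A second alpha-amylase, LOC102598863, was higher in F’ than in A’ (0.62, edgeR FDR 0.00309) and than in B’ (0.65, edgeR FDR 0.00961). LOC102582328 was called lower in B’ than in A’ (−0.41, edgeR FDR 0.0274), a call lost without A’ library 1, 2 or 3 or B’ library 2 (edgeR FDR up to 0.0882). It was higher in F’ than in B’ (0.58, edgeR FDR 0.00465). Of the 4 alpha-amylases, 1 was lower in B’ and 1 higher in F’ than in A’ (25.0% each, beside 32.9% and 35.6% of all genes).

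**Figure D2:**
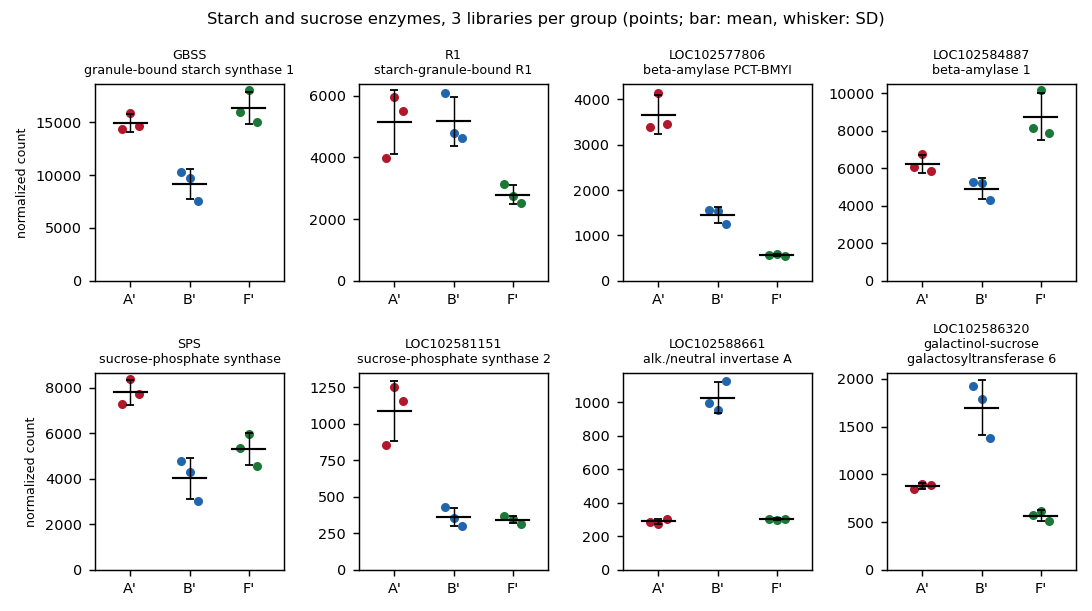
Normalized counts (vertical axis, linear, from 0) of 8 starch and sucrose enzymes in the 3 libraries of A’, B’ and F’ (points, with a bar at the mean and a whisker of 1 SD). Beta-amylase PCT-BMYI falls from A’ through B’ to F’, GBSS is lowest in B’, R1 is lowest in F’, and alkaline/neutral invertase A stands at 957 to 1129.9 in B’ against 275 to 306 in A’ and F’.

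The sucrose-phosphate synthases SPS and LOC102581151, enzymes that commit carbon to sucrose, were lower in B’ and in F’ than in A’. SPS had 7291, 8359.8 and 7721 normalized counts in A’, 4766, 4281 and 3027 in B’ and 5362, 5978 and 4551 in F’. Each A’ library was above every other library, with a Log2FC of −0.95 in B’ (SE 0.160, edgeR FDR 0.000896) and −0.54 in F’ (SE 0.130, edgeR FDR 0.00477). Sucrose-phosphate synthase 2 (LOC102581151) had 855, 1252 and 1156 in A’, 427, 356 and 300.1 in B’ and 365, 350.1 and 314 in F’, which is 3.00-fold and 3.14-fold below A’ (Log2FC −1.58 and −1.65, SE 0.172 and 0.148, edgeR FDR 3.61e-05 and 1.31e-06). B’ and F’ overlapped for both genes. Sucrose-phosphate synthase 4 (LOC102604080) had 109 to 173 in A’, 94.9 to 116 in B’ and 145 to 175 in F’ and was called in neither comparison with A’. Sucrose-phosphatase SPP2, which removes the phosphate in the last step, had 1828 to 1867 in A’, 1567 to 1696 in B’ and 1624 to 1798 in F’ and was not called (Log2FC −0.17 and −0.10).

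Among the enzymes that split sucrose inside the cell, an alkaline/neutral invertase stood apart in B’. Alkaline/neutral invertase A (LOC102588661, contig NW_006238985.1, bases 1573916 to 1579997, minus strand), named in the files for the mitochondrial form, had 285, 275 and 305 normalized counts in A’, 997, 957 and 1129.9 in B’ and 304, 298 and 306 in F’. B’ was 3.58-fold above A’ (Log2FC 1.84, SE 0.123, edgeR FDR 1.06e-06) and F’ was 3.42-fold below B’ (−1.77, SE 0.114, edgeR FDR 4.33e-06), whereas F’ against A’ gave 0.08 with SE 0.120. Of the 8 alkaline/neutral invertases, 4 were higher and 2 lower in B’ (75.0% called, beside 32.9% of all genes), and 1 was higher and 1 lower in F’ (25.0%, beside 35.6%). The count in B’ rested in part on single libraries: 2 were higher and none lower without A’ library 3, and 1 was lower without A’ library 2 or B’ library 1 or 2. A second gene named A, LOC102591938, had 339.6, 459 and 403 in A’, 514, 499 and 842 in B’ and 647, 479 and 616 in F’ (Log2FC 0.63 and 0.55, edgeR FDR 0.0308 and 0.00996), and its call in B’ was lost without A’ library 1 or 3 or B’ library 3 (edgeR FDR up to 0.114). Of the forms named chloroplastic, LOC102597157 was lower in B’ (1756, 1829 and 2028 in A’, 1502, 1389 and 1128 in B’; Log2FC −0.48, edgeR FDR 0.0169, and 0.0917 without A’ library 3), and LOC102596898 was called lower (Log2FC −0.36, edgeR FDR 0.0355), a call lost without A’ library 2 or 3 or B’ library 1 or 2 (edgeR FDR up to 0.166). Among the 3 genes named D, LOC102597490 was higher in B’ (1172, 1244 and 1154 against 1809.8, 1946 and 1498; Log2FC 0.56, edgeR FDR 0.00507). LOC102589904 was called higher (0.49, edgeR FDR 0.0321), a call lost without A’ library 2 or 3 or B’ library 1 or 2 (edgeR FDR up to 0.123), and LOC102602949 was not called in B’ (0.01) but was lower in F’ (−0.56, edgeR FDR 0.00215).

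Sucrose synthase, which splits sucrose to UDP-glucose and fructose, did not pass 207 normalized counts in any library. Sucrose synthase 2 (LOC102577712) had 94.8, 142 and 152 normalized counts in A’, 207, 186 and 193 in B’ and 119, 155 and 113 in F’, and was called higher in B’ (Log2FC 0.60, edgeR FDR 0.0266), a call lost without A’ library 1 or B’ library 1 or 2 (edgeR FDR up to 0.0643). Its neighbour 27.7 kb away, LOC102586510, had 16.3 to 27.6 in A’, 0 to 6.48 in B’ and 1.06 to 6.76 in F’ and was lower in both (Log2FC −2.59 and −2.15, edgeR FDR 0.0073 and 0.00476). The remaining 3 sucrose synthases were not called or not tested.

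Cell wall invertases, a class taken by product name, included members that rose and a member that fell in both groups. Such enzymes split sucrose in the wall space, but whether each member does so was not tested. LOC102604100, named CWINV3-like (contig NW_006239147.1, bases 774202 to 777503, plus strand), had 5.85, 9.80 and 5.75 normalized counts in A’, 39.8, 68.1 and 76.8 in B’ and 70.0, 102 and 68.6 in F’. It was higher by 8.50-fold in B’ (Log2FC 3.09, SE 0.382, edgeR FDR 9.7e-05) and by 11.1-fold in F’ (3.47, SE 0.336, edgeR FDR 2.94e-06), with B’ and F’ overlapping.

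The insoluble isoenzyme 1-like genes LOC102604560 and LOC102604230 lie 8.97 kb apart on the same strand of contig NW_006238934.1, at bases 2822421 to 2826544 and 2835514 to 2840168, and went opposite ways. LOC102604230 had 32.8, 42.5 and 23 normalized counts in A’, 199, 207 and 255 in B’ and 78.4, 79.8 and 86.9 in F’. It was 6.73-fold higher in B’ (Log2FC 2.75, SE 0.224, edgeR FDR 4.53e-06) and 2.50-fold higher in F’ (1.32, SE 0.250, edgeR FDR 0.000927), and F’ was below B’ (−1.44, SE 0.161, edgeR FDR 0.000104). LOC102604560 had 43.3, 45.7 and 49.5 in A’, 8.33, 12.1 and 5.17 in B’ and 14, 23.4 and 3.86 in F’, that is, 5.35-fold lower in B’ (−2.42, SE 0.344, edgeR FDR 0.000265) and 3.35-fold lower in F’ (−1.74, SE 0.424, edgeR FDR 0.0055). Neighbouring copies of like sequence can share reads, and the sources used here do not say how reads that fit both were counted, so the split of reads between the pair is uncertain. A further isoenzyme 1-like gene, LOC102595603, was called higher in F’ (3.45 to 12.0 in A’ against 63.5, 13.8 and 22.2; Log2FC 2.01, edgeR FDR 0.0151). Without F’ library 1 its Log2FC was 1.12 (edgeR FDR 0.133), and the call was also lost without A’ library 3 (edgeR FDR 0.071). Of the 5 cell wall invertases tested, 2 were higher and 1 lower in B’ (60% called, beside 32.9% of all genes), and 3 were higher and 1 lower in F’ (80.0%, beside 35.6%). The one putative invertase inhibitor of the tables, LOC102580224, was not called (Log2FC 0.80 and 0.66).

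**Figure D3:**
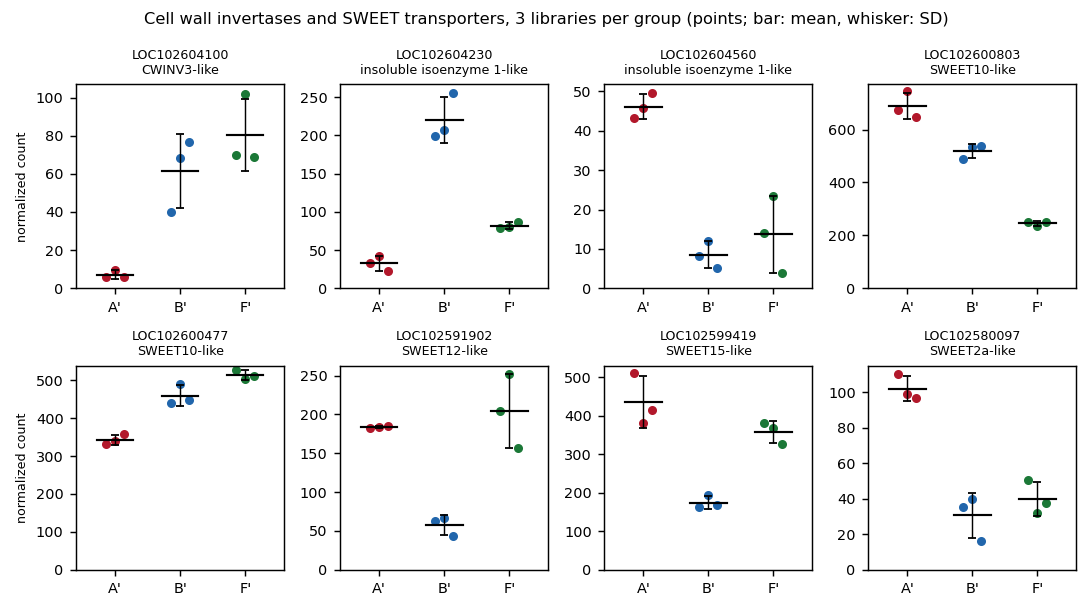
Normalized counts (vertical axis, linear, from 0) of 3 cell wall invertases and 5 SWEET transporters in the 3 libraries of A’, B’ and F’ (points, with a bar at the mean and a whisker of 1 SD). LOC102604230 is highest in B’ while its neighbour LOC102604560 is highest in A’; SWEET12-like LOC102591902 and SWEET15-like LOC102599419 are lowest in B’, and SWEET10-like LOC102600803 is lowest in F’.

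SWEETs are pore-forming carriers that let sugar pass a membrane in either direction. They were the largest class, with 17 members, of which 14 were tested in A’ vs. B’ (3 higher or 21.4%, 7 lower or 50%) and 13 in A’ vs. F’ (3 higher or 23.1%, 5 lower or 38.5%). Of all genes 16.4% were higher and 16.5% lower in B’, and 17.5% and 18.2% in F’. The SWEETs lower in B’ numbered 4 without A’ library 2 or B’ library 2, and those higher in F’ numbered 1 without A’ library 3. In Arabidopsis the clade numbered 9 to 15 carries sucrose, and its SWEET11 and SWEET12 release sucrose beside the phloem, so these members are given first.

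SWEET12-like LOC102591902 had 183, 184 and 185 normalized counts in A’, 62.9, 66.2 and 43.1 in B’ and 205, 252 and 157 in F’. It lies at bases 41 to 989 of contig NW_006240918.1, close to the start of the contig. Whether this gene model is complete was not tested, and reads shared with other SWEET genes are an uncertainty. B’ was the lowest group, 3.19-fold below A’ (Log2FC −1.67, SE 0.190, edgeR FDR 4.98e-05), and F’ was 3.55-fold above B’ (1.83, SE 0.230, edgeR FDR 0.000232). F’ and A’ overlapped (0.17, SE 0.167). SWEET15-like LOC102599419 was lowest in B’ too, with 512, 381 and 415 in A’, 162, 195 and 167 in B’ and 382, 368 and 327 in F’ (Log2FC −1.31 in B’, SE 0.150, edgeR FDR 5.27e-05; 1.03 for F’ against B’, SE 0.133, edgeR FDR 0.000263). Unlike LOC102591902, the second SWEET12-like gene, LOC102587047, was called lower in F’ than in A’. Its read counts were 18, 24 and 14 in A’, 3, 5 and 17 in B’ and 0, 0 and 3 in F’, so every F’ library was at or under the floor of 3 reads, and F’ was at least 6.61-fold lower than A’ (edgeR FDR 0.000367). In B’ it was called at a Log2FC of −1.47 (edgeR FDR 0.0442). That call held only on leaving out B’ library 3 (−2.46, edgeR FDR 0.00268), reached an edgeR FDR of 0.154 without A’ library 2 and was at 0.0575 in DESeq2. SWEET9-like LOC102587377 was not called in B’ (−0.41, edgeR FDR 0.227) or in F’ (−0.80, edgeR FDR 0.0825). Its F’ libraries all lay below those of A’, and leaving out 1 library gave an edgeR FDR of 0.049 to 0.221 there. SWEET11-like LOC102603274 was too low to be tested.

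The 3 SWEET10-like genes lie in a row on contig NW_006239018.1, all on the minus strand, with gaps of 35.5 and 19.8 kb. LOC102600803 had 674, 745 and 647 normalized counts in A’, 488, 534 and 537 in B’ and 252, 236 and 250.2 in F’, so the groups were apart from highest to lowest in the order A’, B’ and F’. F’ was 2.77-fold below A’ (Log2FC −1.47, SE 0.118, edgeR FDR 4.66e-07) and 2.12-fold below B’ (−1.09, SE 0.111, edgeR FDR 6.1e-05), while the smaller step from A’ to B’ (−0.40, edgeR FDR 0.0206) was lost without A’ library 2 or B’ library 1 or 2 (edgeR FDR up to 0.0944). LOC102600477 ran in the opposite direction, with 333, 339 and 358 in A’, 439, 491 and 449 in B’ and 528, 502 and 512 in F’ (Log2FC 0.43 and 0.60, SE 0.117 and 0.113, edgeR FDR 0.0153 and 0.000946), and its call in B’ was lost without B’ library 2 (edgeR FDR 0.0847). The third, LOC102580855, was called lower in B’ (30.4, 34.8 and 43.7 against 24.1, 19.6 and 12.1; −0.96, edgeR FDR 0.0421), a call that held only on leaving out B’ library 1 and reached an edgeR FDR of 0.166 without A’ library 3. Reads shared between these copies are an uncertainty here too.

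**Figure D4:**
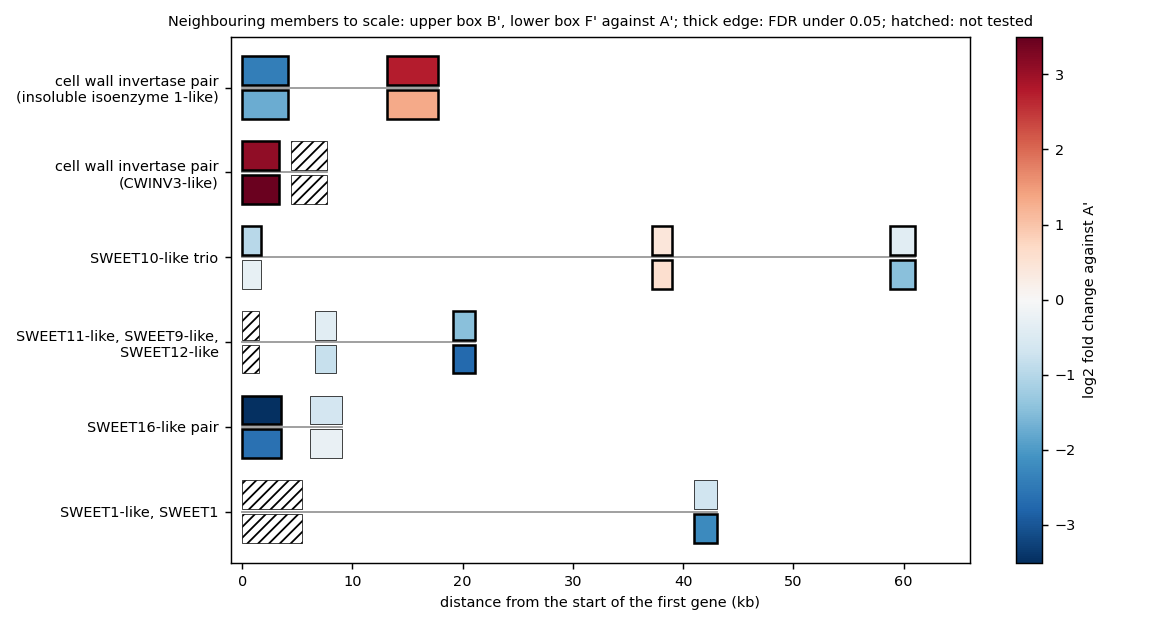
Neighbouring members drawn to scale, with the distance from the start of the first gene in kb on the horizontal axis. For each gene the upper box is coloured by Log2FC of B’ and the lower box by Log2FC of F’ against A’ (red higher, blue lower, thick edge for an FDR under 0.05, hatched where not tested; SWEET12-like LOC102587047 in F’ is drawn at its lower bound); the isoenzyme 1-like cell wall invertases 8.97 kb apart and the SWEET10-like genes 19.8 kb apart carry opposite colours.

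Of the SWEETs outside that clade, SWEET2a-like LOC102580097 was lower in both groups. SWEET2 proteins sit in the vacuolar membrane in Arabidopsis. Its normalized counts were 110.1, 99.1 and 96.6 in A’, 35.2, 40.1 and 16.4 in B’ and 50.4, 31.9 and 37.7 in F’ (Log2FC −1.73 and −1.33, SE 0.288 and 0.223, edgeR FDR 0.000791 and 0.000386). SWEET2 gene LOC102589550 was higher in F’ (180.3, 192 and 169 against 249, 254 and 246; Log2FC 0.48, edgeR FDR 0.0103), which was lost without A’ library 3 (edgeR FDR 0.0607). SWEET16-like LOC102584588, of another vacuolar group, was lower in both, with 18.5 to 19.6 in A’, 0 to 4.66 in B’ and 0 to 4.67 in F’ (Log2FC −3.53 and −2.62, SE 0.720 and 0.575, edgeR FDR 0.003 and 0.00279). In B’ library 2 alone held reads of it, 5 in number, and without that library the fitted Log2FC was −7.22. Its neighbour LOC102584909, 2.63 kb away, was not called. SWEET3-like LOC107061243 was near the floor, with 3 reads in each A’ library, 11, 14 and 14 in B’ and 0 in each F’ library, so B’ was at least 3.35-fold above A’ (edgeR FDR 0.0101, DESeq2 FDR 0.0801) and at least 3.69-fold above F’ (edgeR FDR 0.00128). SWEET1-like LOC102599149 was highest in B’ (276, 253 and 223 in A’, 398, 466 and 398 in B’, 281, 325 and 360.3 in F’; Log2FC 0.75 in B’, SE 0.134, edgeR FDR 0.00124). Its call in F’ (0.37, edgeR FDR 0.0486) was lost without A’ library 2 or 3 or F’ library 2 or 3 (edgeR FDR up to 0.205). The gene named SWEET1, LOC102600613, was lower in F’, with 28.1, 21.8 and 25.3 in A’, 19.4, 12.1 and 14.7 in B’ and 7.47, 1.06 and 6.76 in F’ (Log2FC −2.22, SE 0.479, edgeR FDR 0.00251), and B’ was not called (−0.69, edgeR FDR 0.122).

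Of the 3 sucrose/proton symporters, which load the phloem or empty the vacuole, 1 was called in B’ and 1 in F’. That is 33.3% each, beside 32.9% and 35.6% of all genes. Neither call held over the libraries. LOC102594012, the sucrose transport protein-like gene, had 43364, 42622 and 41944 normalized counts in A’, 40632, 42091 and 26579.5 in B’ and 28803, 39426 and 25782 in F’. B’ overlapped A’ (Log2FC −0.22, SE 0.164). F’ was called lower (−0.43, SE 0.150, edgeR FDR 0.0373), a call that held only on leaving out F’ library 2 (−0.65, edgeR FDR 0.000642) and reached an edgeR FDR of 0.175 without F’ library 3. SUT4, found at the vacuole in other plants, was called lower in B’ (−0.40, edgeR FDR 0.0489), a call that every omission of a library ended, and SUT2 was not called.

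The galactosyltransferases move galactose from galactinol to sucrose. Galactosyltransferase 6 (LOC102586320) was high in B’ and low in F’, with 843, 903 and 892 normalized counts in A’, 1925, 1793 and 1378 in B’ and 575, 619 and 506 in F’. It was 1.94-fold higher in B’ (Log2FC 0.96, SE 0.138, edgeR FDR 0.000298), 1.54-fold lower in F’ (−0.62, SE 0.116, edgeR FDR 0.000878) and 3.01-fold lower in F’ than in B’ (−1.59, SE 0.148, edgeR FDR 3.44e-05). Galactosyltransferase 1 (LOC102598709) had 496, 598 and 498 in A’, 402, 392 and 443 in B’ and 252, 176 and 231 in F’, and fell in F’ (−1.26, SE 0.148, edgeR FDR 1.84e-05), while its call in B’ (−0.36, edgeR FDR 0.0467) held only on leaving out B’ library 3 and reached an edgeR FDR of 0.203 without A’ library 2. Galactosyltransferase 2 (LOC102600756) was not called. A UDP-forming synthase, LOC102601908, showed the same order of groups as galactosyltransferase 6, with 2756, 2659 and 2888 in A’, 3489, 3741 and 3808 in B’ and 2047, 1899 and 2045 in F’ (Log2FC 0.42, −0.46 and −0.89, SE 0.110, 0.111 and 0.104, edgeR FDR 0.0127, 0.00532 and 0.000138), with the call in B’ lost without B’ library 2 (edgeR FDR 0.0584). Of the kinase subunits, sucrose nonfermenting 4-like LOC102593769 was not called (Log2FC −0.25 and −0.19), and LOC102602555 was higher in B’ and F’ (0.79 and 0.56, edgeR FDR 0.0138 and 0.00912), and both calls were lost without A’ library 3 (edgeR FDR 0.0663 and 0.0584).

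Genes that act beside these enzymes were counted on lists drawn up by product name, and the counts stand beside the 16.4% of all genes called higher and 16.5% lower in B’, and the 17.5% and 18.2% in F’. Of 19 tested genes named as carriers of sugar phosphates, phosphoenolpyruvate or maltose, 1 was higher (5.26%) and 6 lower (31.6%) in B’, and 0 were higher and 11 lower (57.9%) in F’. For the 8 of them named chloroplastic, 1 was higher (12.5%) and 4 lower (50%) in B’, and 0 were higher and 5 lower (62.5%) in F’. Among these the triose phosphate/phosphate translocator LOC102585108, which exports the carbon for sucrose synthesis, fell from a mean of 36169 normalized counts in A’ to 24566 in B’ and 26385 in F’ (Log2FC −0.55 and −0.44, edgeR FDR 0.00276 and 0.00821). Genes named glucose-6-phosphate/phosphate translocator 2, which carries glucose-6-phosphate across the plastid envelope, were called in both directions. LOC102582859 was the one carrier that was higher in B’, with means of 20.8, 143 and 20.8 in A’, B’ and F’ (Log2FC 2.78 in B’, edgeR FDR 1.05e-05), and LOC102577730 was lower in both groups, with means of 33.0, 10.6 and 11.6 (−1.62 and −1.47, edgeR FDR 0.0033 and 0.0115). Of 13 tested hexose phosphate interconverting enzymes, 0 were higher and 5 lower (38.5%) in B’, and 0 higher and 4 lower (30.8%) in F’. The 5 lower in B’ numbered 3 without A’ library 1 and 2 without A’ library 2 or 3 or B’ library 1 or 2. Of 11 tested genes named hexokinase or fructokinase, 0 were higher in either group, 3 were lower in B’ (27.3%) and 6 in F’ (54.5%). In F’ 3 were lower without A’ library 2, 2 were higher without A’ library 1, 2 or 3, and 1 was higher without F’ library 2 or 3.

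Glucan phosphorylases and disproportionating enzymes, 5 in all, gave 1 higher and 1 lower in B’ (20% each) and 2 higher (40%) and 3 lower (60%) in F’. In B’ none was called without A’ library 3, 1 was higher and none lower without A’ library 2 or B’ library 2, and 2 were lower and none higher without A’ library 1 or B’ library 1. Pullulanase 1 (LOC102581262), a debranching enzyme, was called in neither group. DE2, a 4-alpha-glucanotransferase, had means of 1649, 1248 and 884 in A’, B’ and F’ and was lower in F’ (Log2FC −0.89, edgeR FDR 0.000254). Of 4 tested genes listed by name for adding phosphate to starch or removing it, 1 was higher in B’ and 1 lower in F’ (25.0% each). The latter was DSP4 (LOC102588091, Log2FC −0.73, edgeR FDR 0.000396), and 1 was higher in F’ without F’ library 2. For hexose and polyol transporters, 28 were tested, with 4 higher (14.3%) and 2 lower (7.14%) in B’ and 9 higher (32.1%) and 11 lower (39.3%) in F’. The 2 lower in B’ numbered 1 without B’ library 1 and 0 without A’ library 1, 2 or 3 or B’ library 2. For trehalose metabolism, whose intermediate trehalose 6-phosphate is a signal of sucrose status, 15 were tested, with 5 higher (33.3%) and 2 lower (13.3%) in B’ and 2 higher (13.3%) and 3 lower (20%) in F’. None was lower in B’ without A’ library 2 or 3 or B’ library 2, and in F’ 1 was higher without A’ library 1 or 3 or F’ library 1 and 1 lower without A’ library 2 or F’ library 1. The SNF1-related list had 3 higher and 4 lower of 13 in B’, and 1 higher and 1 lower in F’, but by name it had also taken in 2 SNF12 homologs of a chromatin remodelling complex, of which LOC102587176 was lower in both groups. The 11 kinase genes alone had 3 higher (27.3%) and 3 lower (27.3%) in B’, and 1 higher (9.09%) and 0 lower in F’, and without A’ library 2 or B’ library 2 the 3 lower in B’ numbered 1.

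Starch breakdown genes follow the time of day in leaves, so 18 clock genes were read in the same fits. In B’, 1 was higher (5.56%) and 6 lower (33.3%), and in F’ 6 were higher and 6 lower (33.3% each), beside the shares of all genes given above, and without B’ library 1 those higher in B’ numbered 2. LHY (LOC102601616), a morning gene, had 612, 737 and 699.5 normalized counts in A’, 168, 148 and 117 in B’ and 868, 1010.0 and 842 in F’ (Log2FC −2.23 and 0.42, edgeR FDR 1.44e-06 and 0.0156), and of the 2 tested genes named APRR1, an evening gene, LOC102593655 had 74.9, 87.1 and 94.3 in A’, 15.7, 19.6 and 12.1 in B’ and 12.1, 10.6 and 2.90 in F’ (−2.42 and −3.29, edgeR FDR 3.65e-05 and 8.16e-06). The other, LOC102582324, had 148, 269 and 249.7 in A’, 274, 295 and 398 in B’ and 396, 177 and 293 in F’ and was not called (0.54 and 0.39). The part of the clock genes’ differences in the members’ values was not tested.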

How the data were processed

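Leaf RNA of A’, B’ and F’ was sequenced as 3 directional libraries per group, 9 in all. The deposited counts of library 3 of B’ and of F’ are labelled B3A and F3A. B3A was taken as B’ library 3 because no other sample carries that name. Raw counts per gene were made and deposited by the authors without normalization, as whole numbers, and the lowest total of a gene over the 6 libraries of a comparison was 5. The deposited signal values, normalized counts, are the authors’ counts scaled per library and were not used, nor were the authors’ own fold changes, standard errors, p-values and FDR. The submitters’ processing notes name TopHat2 2.0.9, Bowtie2 2.1.0 and DESeq2 without saying what each did, and the handling of multiply mapped reads is not given in the sources used here. Coordinates are those of the files, on SolTub_3.0 contigs, and 82 of 85 members had equal coordinates in the RefSeq table.

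Each pair of groups was fitted with its 6 libraries in edgeR 4.0.16 (R 4.3.3: filterByExpr, TMM, robust quasi-likelihood test, Benjamini-Hochberg over all genes tested). The fitting steps were also run on simulated counts with the same spread for all genes, which is not a check of the FDR in these data. SE is the size of Log2FC over the square root of F. Normalized counts were scaled to the mean effective size of the 9 libraries. The floor was 3 reads per library, and a bound is the mean of the higher group over the highest value of 3 reads in the other. With 3 libraries against 3, an exact permutation test of 1 gene cannot go below 0.1, so none was used. Members were named if called in a comparison with A’ with a Log2FC of at least 1 in size and a mean of at least 50 in a group. Members called in such a comparison and at the floor in either of its groups were also named. With the tested member of each class that had most counts, this gave 25. Others were named after their values were seen. The members and lists were chosen with earlier results of these data known, and classes were split and chance name matches dropped after product names were read. Alternatives were DESeq2 1.42.0, RLE normalization, no filter, a replicate block, a joint fit of 9 libraries, an FDR of 0.01 and leaving out each library.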

Additional observations from a re-analysis of the deposited data

How the results depend on the processing

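At an FDR of 0.01 the members higher in B’ than A’ numbered 6 (13 at 0.05) and those lower 11 (22 at 0.05). In B’ vs. F’, 15 members were higher in F’ with the replicate block and 14 in a joint fit of all 9 libraries, against 9. Leaving out 1 library gave, for B’ against A’, 9 to 12 higher and 12 to 21 lower, for F’ against A’, 6 to 11 and 17 to 21, and for F’ against B’, 8 to 11 and 12 to 17. Deviations of same-numbered libraries had r of −0.195 to 0.008 between A’ and B’ and of −0.235 to −0.012 between A’ and F’. Between B’ and F’ r was −0.116, 0.298 and 0.32 for libraries 1, 2 and 3. Whether libraries 2 and 3 of B’ and F’ share a replicate effect was not tested. The replicate block gave 12 higher and 16 lower in B’ and 10 higher and 20 lower in F’ against A’, and 19 lower in F’ against B’. Among the members, the block ended the edgeR calls in B’ against A’ of SUT4 (FDR 0.111), LOC102580855 (0.055), LOC102582328 (0.0651), LOC102589904 (0.0512), LOC102596898 (0.0912), LOC102598709 (0.105) and LOC102600803 (0.0575), and in F’ against A’ of LOC102579881 (0.07) and LOC102599149 (0.0939), with LOC102587377 (0.0444) added. In F’ against B’ it added LOC102577824 (0.0369), SPS (0.0114), LOC102590483 (0.0144), AMYA1 (0.0137), LOC102593066 (0.0264), LOC102594291 (0.0263), LOC102597157 (0.0167), LOC102599630 (0.00921) and LOC102600613 (0.0316). RLE normalization, DESeq2 and no filter kept each count within 1.5 times. Over the 25 named members no direction of a called value reversed under any of these, 823 values kept their side of the threshold, 44 lost a call and 9 gained one. At this depth 10 members, with at most 15 reads in a library, could not be tested against A’.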
